A study of Mus musculus with 12 samples.

Results

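The open chromatin around 4 genes of the C/EBP family, Cebpb, Cebpd, Cebpe and Cebpg, was followed by ATAC-seq in mouse bone marrow progenitors with and without the upstream regulatory element (URE) of Spi1, the gene of the transcription factor PU.1. Regions were taken as members when they overlapped the body of 1 of the 4 genes or the 20 kb on either side of it (GRCm38, GENCODE M21 basic). This gave 40 of the 121336 regions of the deposited count table: 11 at Cebpb, 7 at Cebpd, 13 at Cebpe and 9 at Cebpg. Choosing by position used no measured value, and whether a region acts on the gene near it was not tested. Each region is named by its gene and the distance of its centre from the gene's start site, with minus for upstream. The cells came from bone marrow and were sorted as LSK (Lin- Sca-1+ c-Kit+), which hold the stem cells and earliest progenitors, or as GMP (Lin- Sca-1- c-Kit+ CD16/32+), the progenitors of granulocytes and monocytes. Mice were wild type (WT) or carried the homozygous deletion labelled UREd/d (URE here), which gives the groups WT-LSK and WT-GMP, and URE-LSK and URE-GMP, with 3 libraries each, 12 in all, from 3 mice per genotype and cell type. All mice were littermates on a C57BL/6 background aged 8 to 12 weeks, and the mutants were preleukemic. The deletion is in the germline, so every cell of a URE mouse carries it, and effects inside the sorted cells cannot be told apart from effects of a changed marrow.

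C/EBP proteins are basic leucine zipper transcription factors that bind DNA as dimers, with themselves, with each other or with other zipper proteins. Cebpb drives macrophage gene expression and emergency granulopoiesis, the stepped-up granulocyte production during infection. Cebpd is induced by inflammatory cytokines and in maturing granulocytes. Cebpe is needed for the last steps of granulocyte maturation, including the secondary granules. Cebpg lacks an activation domain of the usual kind and acts mainly as a dimer partner of the other members. PU.1 works beside C/EBP factors at many myeloid enhancers.

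Sequences of 4 distal regions that hold a C/EBP or PU.1 motif are shown first, and the values of these regions are described below. Whether those values depend on the sequences was not tested. All are read from the RefSeq GRCm38 genome on the plus strand, and capitals mark the motif on either strand. The C/EBP motif searched was TTGCNNAA (N, any base) and the PU.1 motif was GAGGAAGT. Neither string contains the other. The stretches are chr2:167687776-167687975 and chr2:167710000-167710119 for Cebpb, chr14:54705938-54706137 for Cebpe, and chr7:35066022-35066232 for Cebpg.
Cebpb -1.1 kb: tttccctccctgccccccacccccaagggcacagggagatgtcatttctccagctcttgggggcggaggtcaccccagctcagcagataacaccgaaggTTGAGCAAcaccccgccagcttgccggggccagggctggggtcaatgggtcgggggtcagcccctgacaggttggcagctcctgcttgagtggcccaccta
Cebpb +21.6 kb: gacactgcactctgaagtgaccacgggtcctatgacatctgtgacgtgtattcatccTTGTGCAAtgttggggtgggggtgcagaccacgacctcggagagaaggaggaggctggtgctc
Cebpe +6.2 kb: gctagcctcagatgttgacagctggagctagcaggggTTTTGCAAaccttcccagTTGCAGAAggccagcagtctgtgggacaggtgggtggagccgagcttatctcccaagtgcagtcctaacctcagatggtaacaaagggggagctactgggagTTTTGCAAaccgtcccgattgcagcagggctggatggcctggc
Cebpg -9.6 kb: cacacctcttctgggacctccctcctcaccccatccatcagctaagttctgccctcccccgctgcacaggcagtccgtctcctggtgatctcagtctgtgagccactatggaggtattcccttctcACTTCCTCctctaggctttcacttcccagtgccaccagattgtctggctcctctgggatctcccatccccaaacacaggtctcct

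The PU.1 motif also lay in the pair of regions at the 3' end of Cebpd that fell in URE-LSK, at chr16:15890068-15890075 and chr16:15890760-15890767, and in the region over the Cebpe start site, at chr14:54713096-54713103 on the minus strand. Their windows of 28 bases, written with the motif in capitals on the strand that holds it, were as follows.
Cebpd +2.9 kb: acaatatgcaGAGGAAGTactgctcttc
Cebpd +3.6 kb: cagggcctgtGAGGAAGTtgggccaaca
Cebpe -0.4 kb: aagcctacaaGAGGAAGTggacccgaga

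Of the 40 regions, 5 held the PU.1 motif (12.5%, against 10.47% of all regions) and 7 the C/EBP motif (17.5% against 20.46%). The fifth region with a PU.1 motif was the one over the Cebpb start site. Regions of like width (within 10%) held the PU.1 motif in 11.01% of cases for Cebpd +2.9 kb and 11.2% for Cebpd +3.6 kb. For the C/EBP motif these shares were 22.3% for Cebpb -1.1 kb, 33.6% for Cebpb +21.6 kb and 27.2% for Cebpe +6.2 kb. Outside the stretch shown, Cebpb +21.6 kb held a further C/EBP match at chr2:167710751-167710758. A match is a string of letters and not a shown binding site.

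Library totals ranged from 23072701 to 62204826 counts, so that 3 counts were worth 0.0520 to 0.126 CPM (counts scaled to a common library size after TMM). The 5 regions lying 12 to 17 kb before the Spi1 start codon, the place of the deleted element, summed to 51.8 to 86.9 CPM in the 6 WT libraries and to 4.17 to 7.16 CPM in the 6 URE libraries. The strongest of them, at chr2:91082790-91083700, held 0 to 6 counts in any URE library. The URE sums came mostly from the regions at chr2:91084159-91084378 and chr2:91084522-91084842, which held 35 to 208 counts in the URE libraries. The former read 3.08 to 3.83 CPM in URE-LSK against 1.35 to 1.71 CPM in WT-LSK. Whether these regions lie inside the deletion was not tested. Promoter regions of GMP markers (6 of 7 genes had one, Fcgr3 had none) summed to 63.6 to 66.4 CPM (WT) and 66.9 to 86.2 CPM (URE) for LSK, and to 223 to 259 CPM (WT) and 333 to 350 CPM (URE) for GMP. Those of LSK markers (7 of 8 genes, Ly6a had none) summed, in this order, to 272 to 279, 289 to 325, 213 to 248 and 242 to 251 CPM. Monocyte and macrophage markers (4 of 4) stood at 9.60 to 11.1, 2.55 to 5.02, 31.2 to 42.6 and 20.4 to 28.3 CPM, and 2 of 3 mature neutrophil markers at 4.04 to 4.45, 0.666 to 1.11, 18.9 to 20.6 and 14.6 to 14.9 CPM, with none for Ly6g. None of the 4 erythroid marker genes had a promoter region in the table. Of 4 T cell marker genes only Lck had one (Cd3e had none), at 4.85 to 7.79, 6.67 to 7.64, 1.09 to 2.12 and 3.56 to 5.72 CPM. It was called higher in URE-GMP (1.39, edgeR adjusted p = 0.000285), and its genotype effect differed between the cell types (1.14, edgeR adjusted p = 0.0382). The 3 megakaryocyte markers summed to 45.4 to 62.3, 68.7 to 70.4, 25.4 to 42.2 and 17.2 to 26.6 CPM. In these bulk libraries fewer cells with open chromatin and less opening per cell cannot be told apart, and the part of cell mixture in the results was not tested.

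**Figure D1:**
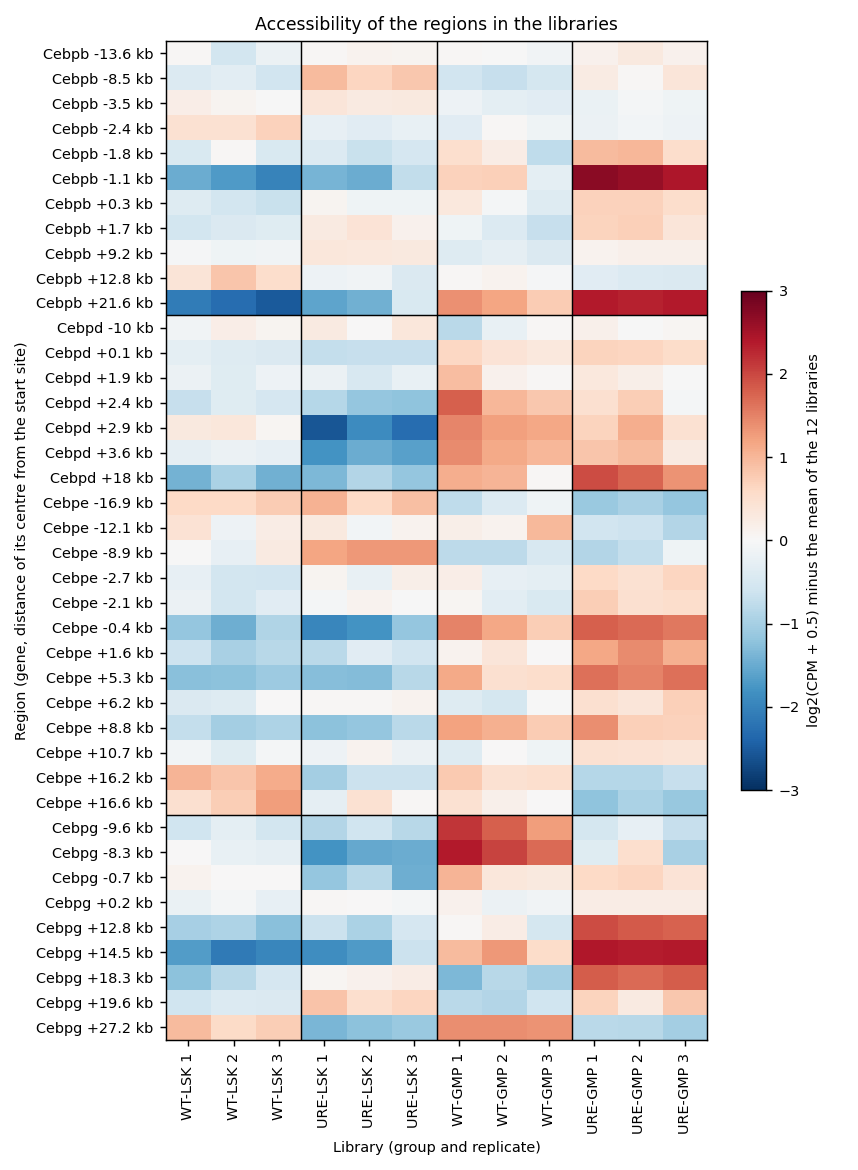
Accessibility of the 40 regions (rows, by gene and distance from the start site) in the 12 libraries (columns), as log2(CPM + 0.5) minus the mean of the region over the 12 libraries; red is above and blue below that mean. The 3 libraries of a group look alike in most rows, URE-GMP is the reddest group at Cebpb -1.1 and +21.6 kb and at the 4 regions 12.8 to 19.6 kb downstream of the Cebpg start, and Cebpd +2.9 kb is bluest in URE-LSK.

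The first question was how loss of the element altered accessibility at these genes in each cell type. In LSK 6 regions were higher and 6 lower in URE (12 of 40, 30%), against 37.5% of all 121336 regions (13.6% higher and 23.9% lower). In GMP 9 were higher and 7 lower (16 of 40, 40%), against 39.7% of all regions (15.6% higher and 24.1% lower). A call here required an adjusted p under 0.05 in edgeR's quasi-likelihood test with Benjamini-Hochberg adjustment over all regions and an absolute log2 fold change over 1. The share of members called in either direction was thus below that of the table in LSK and near it in GMP. By direction, 15% of members were higher and 15% lower in LSK, and 22.5% higher and 17.5% lower in GMP. The higher share was near that of the table in LSK and above it in GMP, and the lower shares were below those of the table. With loess offsets, a scaling fitted along abundance, the split was 10 higher and 6 lower in LSK (21.2% and 19.1% of all regions) and 12 and 6 in GMP (21.5% and 17.9%). With library sizes only it was 5 and 9 in LSK (11.7% and 25.2%), and with GC content offsets 12 and 6 in GMP (21.8% and 19.9%). These scalings thus moved the split of the whole table too. By the adjusted p alone, with no fold threshold, 21 of the 40 passed in LSK (56.8% of all regions did) and 31 in GMP (60.9%). The median log2 fold change of the members was 0.18 in LSK (0.14 over all regions) and 0.40 in GMP (0.06 over all regions). The calls differed by gene: Cebpb had 2 higher and 0 lower in LSK and 3 higher and 0 lower in GMP, while Cebpg had 3 higher and 3 lower in LSK and 4 higher and 3 lower in GMP. Cebpd had 0 higher and 2 lower in LSK and 1 higher and 0 lower in GMP, and Cebpe had 1 higher and 1 lower in LSK and 1 higher and 4 lower in GMP. Where edgeR called 0, DESeq2 called 0 as well, and at an unadjusted p under 0.05 Cebpb had 2 lower in LSK and 1 in GMP, and Cebpd 0 higher in LSK and 3 lower in GMP. No region was called in opposite directions in LSK and GMP. A total of 4 were higher in both (Cebpb +21.6 kb and Cebpg +14.5, +18.3 and +19.6 kb), 3 were lower in both (Cebpe +16.2 kb and Cebpg -8.3 and +27.2 kb), and 19 were called in neither. The LSK call of Cebpg +14.5 kb was lost without URE-LSK replicate 3. The share of all regions in each of these joint classes was not computed, so the counts only describe the members.

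**Figure D2:**
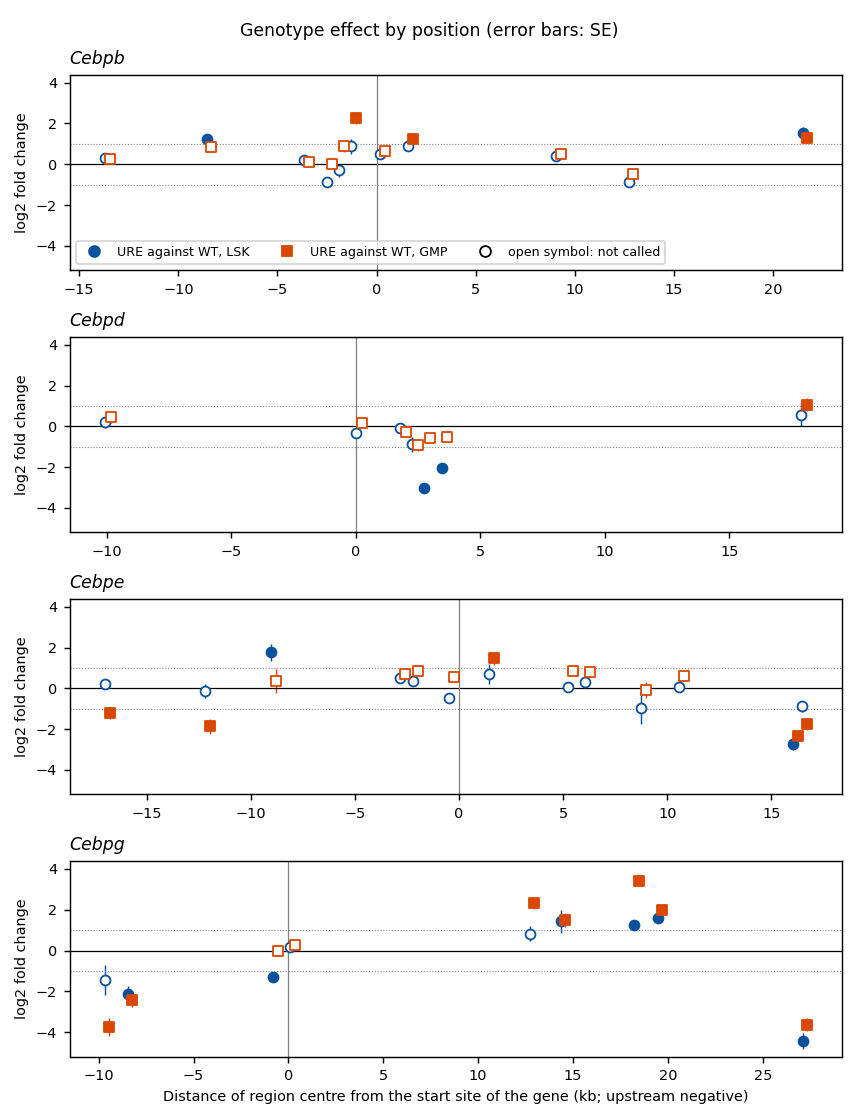
Log2 fold change of URE against WT (vertical axis, error bars SE) of each region by the distance of its centre from the start site of its gene in kb (horizontal axis, upstream negative), in LSK (blue circles) and GMP (orange squares, drawn slightly to the right of the circles); filled symbols were called and dotted lines mark a log2 fold change of 1 and -1. At Cebpb the filled symbols all lie above 0, while at Cebpg the regions 12.8 to 19.6 kb downstream of the start lie above 0 and those at -8.3, -9.6 and +27.2 kb lie below it.

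The step from LSK to GMP was compared within each genotype. In WT 14 of the 40 regions were higher and 2 lower in GMP (40%, against 37.8% of all regions, 21.0% higher and 16.8% lower). In URE 19 were higher and 4 lower in GMP (57.5%, against 49.1%, 27.6% higher and 21.6% lower). By the adjusted p alone 26 of the 40 passed in WT (58.8% of all regions did). All 14 regions that rose in WT also rose in URE, and 5 more were called higher only in URE, which by itself is no test of a difference between the genotypes. The share of all regions with such joint calls was not computed. These comparisons use the same libraries as the genotype comparisons and are no independent view of them.

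At Cebpb the region over the start site was more open in URE in both cell types, with changes under the fold threshold, and the large changes lay away from it. The start region, chr2:167688129-167690253, covers most of this intronless gene and has a GC content of 71.2%. Its accessibility was 64.03, 56.8 and 52.2 CPM (WT) against 89.01, 76.98 and 75.98 CPM (URE) in LSK, and 105, 80.1 and 63.9 CPM (WT) against 136, 134 and 122 CPM (URE) in GMP. The URE libraries lay above all WT libraries in either cell type, and the WT-GMP libraries were the most spread. The log2 fold change was 0.48 ± 0.13 (edgeR adjusted p = 0.00558) in LSK and 0.66 ± 0.13 (edgeR adjusted p = 0.000469) in GMP. The LSK value no longer passed with loess offsets (0.19, edgeR adjusted p = 0.182) or GC content offsets (0.18, edgeR adjusted p = 0.147), and the GMP value was 0.41 with loess offsets.

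Upstream, Cebpb -1.1 kb (chr2:167687562-167687975, in an intron of the antisense gene Tmem189, with the C/EBP motif shown above) was close to shut in LSK. There it read 0.918, 0.734 and 0.503 CPM in WT and 1.02, 0.921 and 1.901 CPM in URE. In GMP it read 5.94, 6.02 and 2.74 CPM in WT and 25.4, 23.9 and 20.9 CPM in URE, so every URE-GMP library stood more than 3 times above the highest WT-GMP library. The log2 fold change of URE against WT was 2.26 ± 0.29 (edgeR adjusted p = 7.23e-06) in GMP. In LSK it was 0.87 ± 0.36 (edgeR adjusted p = 0.0504), which did not pass, and without URE-LSK replicate 3, the highest of its group, it was 0.46. The difference between the genotype effects of the cell types was 1.39 ± 0.46 (edgeR adjusted p = 0.0509), not a call. It was called with the replicate number as a block (1.37, edgeR adjusted p = 0.0487) and with DESeq2 (1.404, adjusted p = 0.0197), and without URE-LSK replicate 3 it was 1.802 with an edgeR adjusted p of 0.0146. From LSK to GMP the region rose by 2.78 (log2) in WT and 4.17 in URE.

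Downstream, Cebpb +21.6 kb (chr2:167709906-167711142, in an intron of the lincRNA A530013C23Rik) opened from LSK to GMP and was higher in URE in both. The libraries read 1.57, 1.35 and 1.05 CPM (WT) against 2.498, 2.76 and 6.02 CPM (URE) in LSK, and 22.6, 19.8 and 14.6 CPM (WT) against 46.2, 43.9 and 46.2 CPM (URE) in GMP. The genotypes did not overlap in either cell type, and URE-LSK replicate 3 stood well above the other two. The change was 1.54 ± 0.30 (edgeR adjusted p = 0.000377) in LSK and 1.26 ± 0.24 (edgeR adjusted p = 0.000276) in GMP, and the rise from LSK to GMP was 3.85 in WT and 3.58 in URE (log2). Without URE-LSK replicate 3 the LSK value was 1.01 (edgeR adjusted p = 0.00116). The same library had the highest sum over GMP marker promoters in its group, 86.2 CPM against 67.2 and 66.9 CPM. The part of this in the LSK value was not tested.

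The Cebpb region with the most counts after the start site, Cebpb -8.5 kb (chr2:167679919-167681008, Tmem189 intron), followed genotype more than cell type. It read 24.7, 26.3 and 21.96 CPM (WT) against 63.6, 51.6 and 58.01 CPM (URE) in LSK, and 22.01, 20.2 and 22.7 CPM (WT) against 39.2, 33.6 and 42.04 CPM (URE) in GMP. All URE libraries lay above all WT libraries. The change was 1.25 ± 0.11 (edgeR adjusted p = 1.01e-07) in LSK and, under the fold threshold, 0.82 ± 0.11 (edgeR adjusted p = 8.41e-06) in GMP. With GC content offsets the GMP value was 1.08 and was called. Cebpb +1.7 kb, within 500 bp of the start of A530013C23Rik, was higher in URE by 1.22 (log2) in GMP, a call, and by 0.89 in LSK, under the fold threshold. Cebpb -1.8 kb rose from LSK to GMP only past the threshold in URE (1.61, log2). Cebpb +9.2 and +12.8 kb were not called by genotype. Cebpb +9.2 kb was higher in URE (0.42 in LSK and 0.52 in GMP). Cebpb +12.8 kb, a few kb on in the same lincRNA, was lower in URE (-0.88 in LSK and -0.47 in GMP), and all 4 of these values had an edgeR adjusted p under 0.05. The GMP value of Cebpb +12.8 kb did not keep it with RLE size factors, loess offsets or only the groups compared, or without URE-GMP replicate 1, 2 or 3 or WT-GMP replicate 2. Cebpb -2.4 kb was lower in URE-LSK (-0.85) and its genotype effect differed between the cell types by 0.85 ± 0.21 (edgeR adjusted p = 0.0127). Cebpb -13.6 and -3.5 kb had a mean of 3.80 to 9.34 CPM in every group and no adjusted p under 0.05 by genotype.

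**Figure D3:**
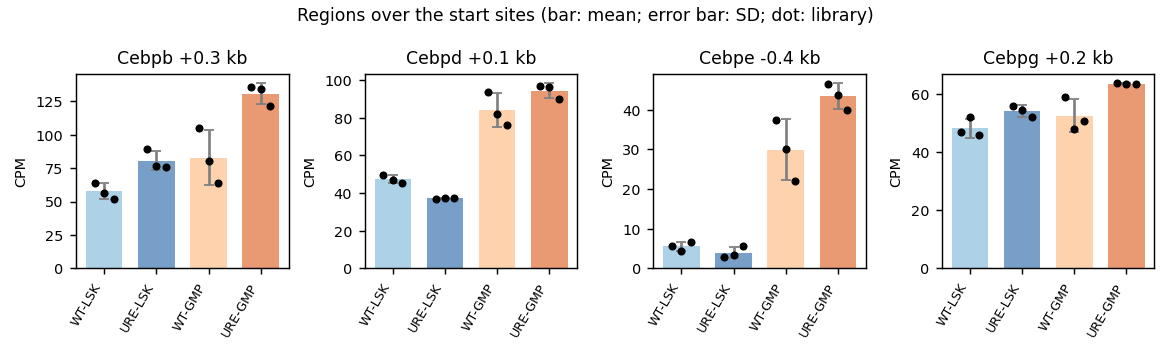
Accessibility in CPM (vertical axis) of the region over the start site of each of the 4 genes in the 4 groups (horizontal axis, LSK left and GMP right, WT before URE); bars are means, error bars SD and dots the 3 libraries. Cebpd and Cebpe stand higher in GMP than in LSK, Cebpb is higher in URE in both cell types, and Cebpg lies between 45.8 and 63.5 CPM in all 12 libraries.

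At Cebpd the larger changes in LSK were in the 3' untranslated part of the gene rather than at its start. Cebpd +2.9 kb (chr16:15889968-15890312, also in the span of the antisense gene Spidr, with a PU.1 motif) read 7.45, 7.75 and 6.29 CPM in WT-LSK and 0.595, 1.26 and 0.833 in URE-LSK. In GMP the libraries read 17.6, 14.9 and 14.1 CPM in WT and 9.84, 13.4 and 8.41 in URE. WT-LSK and URE-LSK were far apart, while in GMP both genotypes were open and the URE libraries lay somewhat lower, without overlap. The change was -3.01 ± 0.25 (edgeR adjusted p = 7.38e-08) in LSK and -0.55 ± 0.21 (edgeR adjusted p = 0.0307) in GMP, and these effects differed by 2.46 ± 0.32 (edgeR adjusted p = 0.000155). The GMP value no longer passed with GC content offsets (-0.075, edgeR adjusted p = 0.752), nor without URE-GMP replicate 1 or 3 or WT-GMP replicate 1 (-0.51, -0.42 and -0.499). From LSK to GMP the region rose by 1.12 (log2) in WT and 3.57 in URE. The WT value went under the fold threshold without WT-GMP replicate 1 (0.96), without WT-LSK replicate 3 (0.93) and with GC content offsets (0.95).

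Its neighbour Cebpd +3.6 kb (chr16:15890642-15891048), which spans the end of the gene, had lower levels. It read 2.204, 2.41 and 2.27 CPM (WT) against 0.452, 0.6699 and 0.555 CPM (URE) in LSK, and 8.200, 6.74 and 6.08 CPM (WT) against 5.32, 5.81 and 3.46 CPM (URE) in GMP. Again the LSK genotypes were separate by a wide gap and the GMP genotypes by a narrow one. The change was -2.04 ± 0.26 (edgeR adjusted p = 5.22e-06) in LSK and -0.52 ± 0.21 (edgeR adjusted p = 0.0411) in GMP, with a difference of 1.52 ± 0.33 (edgeR adjusted p = 0.00537). The GMP value no longer passed with DESeq2 (-0.46), RLE size factors (-0.46), loess offsets (-0.38), GC content offsets (-0.19, edgeR adjusted p = 0.426) or only the groups compared. It was -0.33 without URE-GMP replicate 3, and did not pass without URE-GMP replicate 1 or WT-GMP replicate 1 or 2 either. Its rise from LSK to GMP was 1.61 in WT and 3.13 in URE (log2). Closer to the start, Cebpd +2.4 kb was lower in URE, with log2 fold changes of -0.88 in LSK and -0.94 in GMP (in this order, edgeR adjusted p = 0.0481 and 0.0124), under the fold threshold. Both no longer passed with loess offsets (-0.57 and -0.64) or GC content offsets (-0.52 and -0.66). The GMP value was also lost without WT-GMP replicate 1 (-0.599) or URE-GMP replicate 3 (-0.71), and the LSK value with RLE size factors and without URE-LSK replicate 2 or 3, WT-LSK replicate 2 or 3, or URE-GMP replicate 1. It rose from LSK to GMP by 2.17 in WT and 2.12 in URE. Cebpd +1.9 kb held 2.43 to 7.24 CPM in the 12 libraries and was not called in any comparison.

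The region over the Cebpd start site and coding exon (chr16:15886568-15888276) read 49.8, 46.95 and 45.4 CPM (WT) against 36.98, 37.5 and 37.4 CPM (URE) in LSK, and 93.8, 81.98 and 76.2 CPM (WT) against 96.7, 96.4 and 89.9 CPM (URE) in GMP. It was lower in all 3 URE-LSK libraries than in any WT-LSK library, while the GMP genotypes overlapped. The change was -0.35 ± 0.08 (edgeR adjusted p = 0.00134) in LSK and 0.17 ± 0.08 (edgeR adjusted p = 0.0693) in GMP. The latter did not pass and turned to -0.052 with loess offsets. The rise from LSK to GMP was 0.82 in WT and 1.34 in URE (log2), a difference of 0.52 ± 0.11 (edgeR adjusted p = 0.00479), itself under the fold threshold. Cebpd +18 kb (chr16:15905168-15905430, Spidr intron) was near the counting floor in LSK, at 0.121 to 0.419 CPM in 6 libraries. It read 3.05, 2.92 and 1.22 CPM in WT-GMP against 5.98, 5.13 and 3.804 CPM in URE-GMP. From LSK to GMP it rose by 3.67 in WT and 4.16 in URE (log2). The genotype change in GMP was 1.07 ± 0.34 (edgeR adjusted p = 0.0127). It was not called without WT-GMP replicate 3 (0.75), the lowest of its group, or without URE-GMP replicate 1 (0.91), and rose to 1.93 with loess offsets. Cebpd -10 kb held 0.711 to 2.18 CPM and was called nowhere.

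At Cebpe the start site opened from LSK to GMP in both genotypes, and opened somewhat further in URE-GMP. The start region (chr14:54711866-54713235) read 5.59, 4.41 and 6.76 CPM (WT) against 2.97, 3.43 and 5.62 CPM (URE) in LSK, and 37.5, 29.98 and 22.1 CPM (WT) against 46.4, 43.8 and 39.95 CPM (URE) in GMP. The LSK genotypes overlapped, and the GMP genotypes did not. The rise from LSK to GMP was 2.397 ± 0.22 (edgeR adjusted p = 5.6e-07) in WT and 3.43 ± 0.23 (edgeR adjusted p = 9.86e-09) in URE. URE against WT was -0.49 ± 0.23 (edgeR adjusted p = 0.0829) in LSK, which did not pass, and 0.54 ± 0.21 (edgeR adjusted p = 0.0314) in GMP, under the fold threshold. The GMP value did not pass with loess offsets (0.48) or library sizes only (0.43), nor without WT-GMP replicate 3 (0.38), WT-GMP replicate 2, or URE-GMP replicate 1 or 2. The difference of the effects, 1.03 ± 0.31 (edgeR adjusted p = 0.0317), was at the edge of a call. Without URE-LSK replicate 1 it was 0.85 with an edgeR adjusted p of 0.0869, and it was also lost without URE-LSK replicate 2, WT-LSK replicate 3, WT-GMP replicate 3 and URE-GMP replicates 1 and 2.

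Downstream of Cebpe, where an enhancer active in granulocyte precursors is known, lay a pair of neighbouring regions, of which Cebpe +6.2 kb (chr14:54705655-54706359, intergenic) held the most counts of the locus. It carries 3 C/EBP motifs, shown above. It read 31.1, 32.2 and 41.99 CPM (WT) against 42.8, 42.8 and 45.3 CPM (URE) in LSK, and 31.8, 29.1 and 41.8 CPM (WT) against 58.6, 54.1 and 69.8 CPM (URE) in GMP. It read about as high in LSK as in WT-GMP, and URE-GMP stood above every other group. The change was 0.83 ± 0.14 (edgeR adjusted p = 8.41e-05) in GMP, under the fold threshold, and 0.31 ± 0.14 (edgeR adjusted p = 0.0642) in LSK. In GMP it was called with GC content offsets (1.03) and without WT-GMP replicate 3 (1.02). Cebpe +5.3 kb (chr14:54706465-54707222) differed from it in LSK. It read 5.62, 5.75 and 6.37 CPM (WT) against 5.496, 5.39 and 7.71 CPM (URE) in LSK, and 31.5, 19.8 and 20.5 CPM (WT) against 45.5, 40.3 and 45.6 CPM (URE) in GMP. The LSK genotypes overlapped and the GMP genotypes did not. It rose from LSK to GMP by 2.01 in WT and 2.82 in URE (log2), and the genotype change was 0.88 ± 0.17 (edgeR adjusted p = 0.000279) in GMP and 0.07 ± 0.18 (edgeR adjusted p = 0.759) in LSK, the latter of no settled sign. The difference of these effects was 0.81 ± 0.24 (edgeR adjusted p = 0.0327), and did not pass with GC content offsets (0.75) or without URE-GMP replicate 1 or 3, URE-LSK replicate 1 or 2, or WT-LSK replicate 3.

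Other Cebpe regions were weaker. Cebpe +1.6 kb, in the coding exon, read 0.0816 to 0.391 CPM in LSK libraries, 0.711, 0.965 and 0.645 CPM in WT-GMP and 2.05, 2.55 and 1.89 CPM in URE-GMP. It was higher in URE-GMP by 1.47 ± 0.33 (edgeR adjusted p = 0.00127), and by 2.77 with loess offsets. Cebpe +8.8 kb, intergenic, held 0, 1 and 8 counts in URE-LSK and 1.38 to 2.56 CPM in GMP libraries of either genotype, and rose from LSK to GMP by 3.704 ± 0.54 (edgeR adjusted p = 3.15e-05) in WT (2.96 with loess offsets). In URE the fitted rise was 4.59 (log2), and 6.81 without URE-LSK replicate 3, which held the 8 counts. Cebpe -2.1, -2.7 and +10.7 kb were higher in URE-GMP by 0.87, 0.72 and 0.63 (log2, edgeR adjusted p under 0.05 and none called).

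The lower regions of the Cebpe locus lay at its far ends. Cebpe +16.2 kb (chr14:54695889-54696111, a coding exon of Gm29776) read 2.41, 2.08 and 2.59 CPM (WT) against 0.214, 0.419 and 0.427 CPM (URE) in LSK, and 1.97, 1.49 and 1.54 CPM (WT) against 0.301, 0.295 and 0.388 CPM (URE) in GMP. Both cell types showed a wide gap between the genotypes. The change was -2.74 ± 0.31 (edgeR adjusted p = 1.47e-06) in LSK and -2.33 ± 0.31 (edgeR adjusted p = 9.36e-06) in GMP, and -1.66 and -1.41 with loess offsets. Its neighbour Cebpe +16.6 kb was at -1.74 ± 0.29 (edgeR adjusted p = 9.65e-05) in GMP, a call, and at -0.88 in LSK (edgeR adjusted p = 0.0103). The LSK value no longer passed with GC content offsets (-0.43) or without URE-LSK replicate 1 or WT-LSK replicate 3. Upstream, within the amino acid transporter gene Slc7a8, Cebpe -16.9 kb (intron) read 2.47, 2.49 and 2.86 CPM (WT) against 3.57, 2.46 and 3.204 CPM (URE) in LSK, and 0.669, 0.986 and 1.31 CPM (WT) against 0.409, 0.503 and 0.388 CPM (URE) in GMP. The LSK genotypes overlapped, and URE-GMP lay below WT-GMP. It was lower in GMP than in LSK, at -1.36 in WT and -2.81 in URE (log2). The genotype change was 0.24 ± 0.24 (edgeR adjusted p = 0.408) in LSK and -1.21 ± 0.29 (edgeR adjusted p = 0.00191) in GMP, a difference of -1.45 ± 0.38 (edgeR adjusted p = 0.0153). Without WT-GMP replicate 3 the GMP change was -0.96 and the difference -1.14, and neither was called.

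Cebpe -12.1 kb, over a coding exon of Slc7a8, read 0.857 to 1.55 CPM in the 6 LSK libraries, 1.21, 1.11 and 2.44 CPM in WT-GMP and 0.517, 0.486 and 0.315 CPM in URE-GMP. WT-GMP replicate 3 was about double the other 2 WT-GMP libraries, and all 3 were above URE-GMP. The change in GMP was -1.85 ± 0.37 (edgeR adjusted p = 0.000415), and -1.104 with loess offsets. The difference from LSK was -1.74 ± 0.50 (edgeR adjusted p = 0.0268), and -1.199 without that library (edgeR adjusted p = 0.0973). It was also lost without URE-GMP replicate 3, URE-LSK replicate 1, WT-LSK replicate 2 or WT-LSK replicate 3. Cebpe -8.9 kb, intergenic, was the only Cebpe region called higher in URE-LSK. It read 0.577, 0.408 and 0.804 CPM in WT-LSK and 1.95, 2.15 and 2.18 in URE-LSK, without overlap, and 0.0861 to 0.485 CPM in the GMP libraries. The change was 1.76 ± 0.43 (edgeR adjusted p = 0.00222) in LSK, and 3.01 with loess offsets. From LSK to GMP the change was -1.74 ± 0.53 (edgeR adjusted p = 0.0104) in WT and -3.15 ± 0.47 (edgeR adjusted p = 1.77e-05) in URE. With loess offsets these were -2.39 and -3.74. Without WT-GMP replicate 3 the WT value was -2.37, and without URE-GMP replicate 3 the URE value was -4.05.

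**Figure D4:**
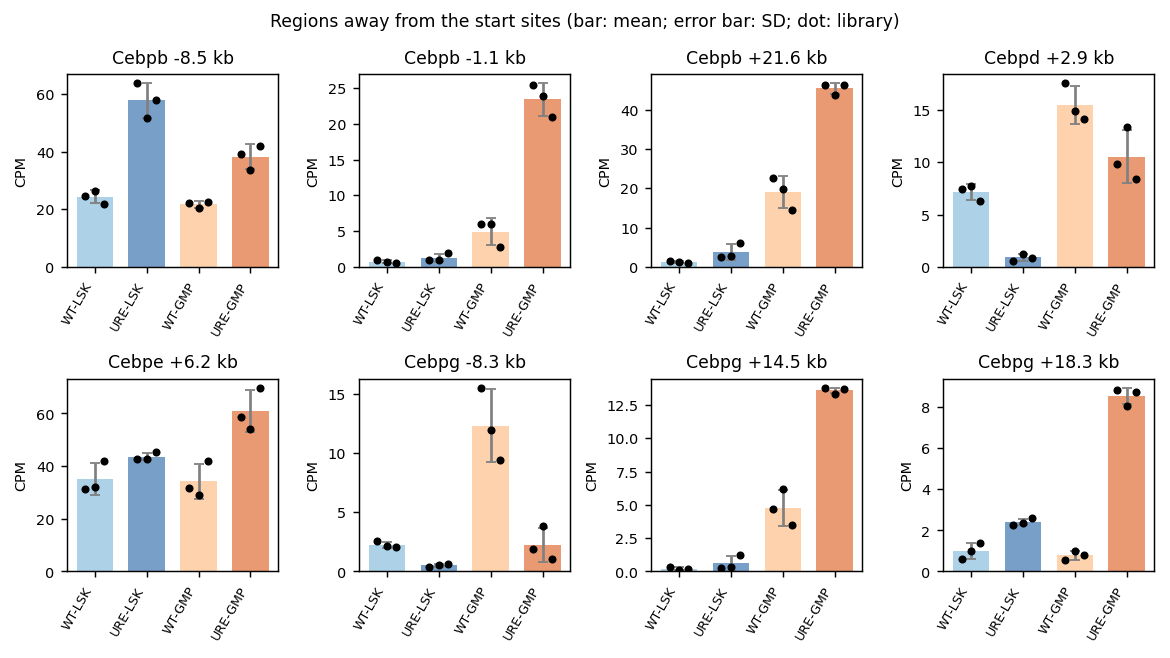
Accessibility in CPM (vertical axis, each panel with its own scale from 0) of 8 regions away from the start sites in the 4 groups (horizontal axis); bars are means, error bars SD and dots the 3 libraries. Cebpb -1.1 and +21.6 kb and Cebpg +14.5 and +18.3 kb are highest in URE-GMP, Cebpd +2.9 kb is lowest in URE-LSK, and Cebpg -8.3 kb is highest in WT-GMP.

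At Cebpg the start site changed by less than the fold threshold in every comparison. By genotype, 7 of the 9 regions were called in GMP (39.7% of all regions were) and 6 in LSK (37.5%). The start region (chr7:35055844-35056844, shared with the start of the antisense transcript Gm45095, GC content 71.0%) read 46.9, 51.9 and 45.8 CPM (WT) against 55.7, 54.5 and 51.9 CPM (URE) in LSK, and 58.9, 47.9 and 50.7 CPM (WT) against 63.5, 63.4 and 63.4 CPM (URE) in GMP. These 12 values span a narrow band, the genotypes met at 51.9 CPM in LSK, and URE lay just above WT in GMP. The change in GMP was 0.28 ± 0.08 (edgeR adjusted p = 0.0083), and no longer passed with loess offsets (0.067, edgeR adjusted p = 0.392), GC content offsets (0.12) or library sizes only (0.16). In LSK it was 0.17 ± 0.08 (edgeR adjusted p = 0.0957) with a 95% interval of -0.01 to 0.34, and it turned to -0.083 with loess offsets and -0.13 with GC content offsets. Cebpg -0.7 kb (chr7:35056999-35057485), within 500 bp of a Cebpg start and over the start of the lincRNA Gm45096, did change in LSK. It read 7.85, 7.34 and 7.400 CPM (WT) against 2.97, 3.85 and 2.31 CPM (URE) in LSK, and 15.4, 9.400 and 9.104 CPM (WT) against 11.3, 11.7 and 9.89 CPM (URE) in GMP. The LSK genotypes were separate and the GMP genotypes overlapped. The change was -1.31 ± 0.22 (edgeR adjusted p = 9.93e-05) in LSK, which went under the fold threshold with GC content offsets (-0.83), and -0.04 ± 0.21 (edgeR adjusted p = 0.89) in GMP, the latter of no settled sign. The effects differed by 1.28 ± 0.30 (edgeR adjusted p = 0.00919), and the rise from LSK to GMP in URE was 1.85 (log2).

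Upstream of Cebpg, in an intron of Gm45096, lay 2 regions that opened from LSK to GMP in WT and were lower in URE. Cebpg -8.3 kb (chr7:35064642-35065197) read 2.57, 2.12 and 2.05 CPM (WT) against 0.381, 0.558 and 0.598 CPM (URE) in LSK, and 15.5, 11.98 and 9.38 CPM (WT) against 1.89, 3.85 and 1.07 CPM (URE) in GMP. URE lay below WT in either cell type, and URE-GMP was about at the level of WT-LSK. The change was -2.13 ± 0.40 (edgeR adjusted p = 0.000288) in LSK and -2.41 ± 0.34 (edgeR adjusted p = 1.68e-05) in GMP, and -3.04 in GMP without URE-GMP replicate 2, the highest of its group. The rise from LSK to GMP was 2.44 in WT and 2.16 in URE (log2), the latter 1.53 without the same library. Cebpg -9.6 kb (chr7:35066022-35066232), the region with the PU.1 motif shown above, read 3.72, 2.83 and 1.77 CPM in WT-GMP against 0.172, 0.312 and 0.0969 CPM in URE-GMP. In LSK it held 5, 7 and 8 counts in WT and 1, 5 and 2 counts in URE, near the floor of 3 counts. The change in GMP was -3.75 ± 0.46 (edgeR adjusted p = 4.76e-06), and -2.43 with loess offsets. In LSK the change was not detectable at this depth (-1.45 ± 0.71 (edgeR adjusted p = 0.0949)), though without URE-LSK replicate 2 it was -2.33 and called. The difference of the effects, -2.31 ± 0.94 (edgeR adjusted p = 0.108), was not called, and was -1.42 without that library. In WT the rise from LSK to GMP was 3.897 ± 0.49 (edgeR adjusted p = 7.5e-06), and 2.82 with loess offsets. The call of a rise in URE (1.59 ± 0.67 (edgeR adjusted p = 0.0466)) rested on 1 to 18 counts a library. It was lost with loess offsets (0.92) and without URE-GMP replicate 2 (1.03). It was lost too in the fits without URE-GMP replicate 1, URE-LSK replicate 1 or 3, WT-GMP replicate 1 or 2, and WT-LSK replicate 1 or 3, and was 2.48 without URE-LSK replicate 2.

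Downstream of the Cebpg start, in introns of the peptidase gene Pepd, 4 regions were higher in URE. Cebpg +14.5 kb read 0.341, 0.122 and 0.201 CPM (WT) against 0.238, 0.335 and 1.24 CPM (URE) in LSK, and 4.69, 6.17 and 3.48 CPM (WT) against 13.7, 13.3 and 13.7 CPM (URE) in GMP. In GMP every URE library was more than double any WT library. In LSK the genotypes overlapped, and only URE-LSK replicate 3 stood out. The change was 1.504 ± 0.35 (edgeR adjusted p = 0.00141) in GMP. In LSK it was 1.43 ± 0.55 (edgeR adjusted p = 0.0375), and without URE-LSK replicate 3, the library with the highest GMP marker sum of its group, it was 0.298 (edgeR adjusted p = 0.604). The rise from LSK to GMP was 4.36 in WT and 4.44 in URE (log2), the latter 5.57 without that library. The LSK call was also lost without WT-LSK replicate 2, WT-LSK replicate 3 or WT-GMP replicate 1.

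Cebpg +18.3 kb (chr7:35037450-35037779) was called higher in GMP than in LSK in URE and not in WT. It read 0.6298, 0.979 and 1.37 CPM (WT) against 2.26, 2.37 and 2.58 CPM (URE) in LSK, and 0.544, 0.986 and 0.807 CPM (WT) against 8.804, 8.07 and 8.72 CPM (URE) in GMP. All URE libraries lay above all WT libraries, with the wider gap in GMP. The change was 1.26 ± 0.26 (edgeR adjusted p = 0.000613) in LSK and 3.403 ± 0.26 (edgeR adjusted p = 7.36e-08) in GMP, and the effects differed by 2.15 ± 0.36 (edgeR adjusted p = 0.00103). The rise from LSK to GMP in URE was 1.82 (log2). Without WT-LSK replicate 1, the lowest library, the LSK value was 0.94 and not called. Cebpg +12.8 kb (chr7:35042958-35043261) was also highest in URE-GMP, but WT-GMP stood mostly above the LSK groups, with its lowest library inside their range. It read 0.221 to 0.705 CPM in LSK, 1.26, 1.49 and 0.691 CPM in WT-GMP and 6.200, 5.62 and 5.33 CPM in URE-GMP. Its change was 2.32 ± 0.28 (edgeR adjusted p = 4.86e-06) in GMP (3.03 with loess offsets) and 0.83 ± 0.37 (edgeR adjusted p = 0.0675) in LSK, which did not pass. The difference, 1.49 ± 0.48 (edgeR adjusted p = 0.0425), was lost without WT-LSK replicate 1 (edgeR adjusted p = 0.102). It was lost too without WT-LSK replicate 2, URE-LSK replicate 1 or 2, WT-GMP replicate 3, and URE-GMP replicate 1 or 2. Cebpg +19.6 kb was higher by 1.604 ± 0.27 (edgeR adjusted p = 9.19e-05) in LSK (2.25 with loess offsets) and 1.98 ± 0.28 (edgeR adjusted p = 1.67e-05) in GMP, with 0.462 to 0.816 CPM in the WT libraries and 1.63 to 2.66 CPM in the URE libraries.

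The region farthest downstream, Cebpg +27.2 kb (chr7:35028607-35028838, Pepd intron), had the largest genotype change among the 40 regions in LSK. The WT libraries read 2.13, 1.51 and 1.75 CPM (LSK) and 3.05, 3.08 and 2.95 CPM (GMP), and the URE libraries 0.0238, 0.0837 and 0.128 CPM (LSK, from 1, 3 and 6 counts) and 0.2798, 0.2602 and 0.1696 CPM (GMP). Every WT library was at least 5 times above every URE library. The change was -4.45 ± 0.40 (edgeR adjusted p = 1.46e-07) in LSK and -3.65 ± 0.32 (edgeR adjusted p = 2.64e-07) in GMP, and -3.18 and -2.48 with loess offsets. Without URE-LSK replicate 3 the LSK value was -5.05. The rise from LSK to GMP in URE was 1.55 ± 0.47 (edgeR adjusted p = 0.00876), lost with loess offsets (1.04) and 2.15 without that library. No match to the PU.1 or C/EBP motif, to AACCACA (bound by RUNX factors) or to AGATAA (bound by GATA factors) was found in this window, on either strand.

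Whether the deletion acted differently on these regions in the 2 cell types was tested as the difference between the 2 genotype effects, the GMP value less the LSK value. Of the 40 regions, 6 were called higher and 2 lower (20%, against 14.0% of all regions, 8.96% higher and 5.03% lower). The 6 with the larger change in GMP or the smaller loss there were Cebpd +2.9 and +3.6 kb, Cebpe -0.4 kb, and Cebpg -0.7, +12.8 and +18.3 kb, and those in the other direction were Cebpe -12.1 and -16.9 kb. Cebpb had 0 in either direction with edgeR, against 3 higher and 1 lower at an unadjusted p under 0.05, and DESeq2 called 1 higher. The count of lower calls was 0 without WT-GMP replicate 3, and 1 without URE-LSK replicate 1, WT-LSK replicate 2 or WT-LSK replicate 3. Of all regions 3.28%, 3.67%, 3.33% and 3.73% were called lower in these fits, in this order.

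Summed over all regions of a locus, some of which lie inside other genes, the Cebpb locus stood higher in URE. Its 11 regions summed to 138, 133 and 123 CPM (WT) against 204, 179 and 187 CPM (URE) in LSK, and 194, 166 and 138 CPM (WT) against 293, 285 and 275 CPM (URE) in GMP. The genotypes did not overlap in either cell type, which at 3 against 3 libraries an exact permutation test could not bring below p = 0.1. The 13 regions of Cebpe summed to 72.0 ± 9.44 CPM (SD, n = 3, WT) against 80.8 ± 4.63 CPM (URE) in LSK, and 114 ± 13.3 CPM (WT) against 180.4 ± 9.54 CPM (URE) in GMP. Those of Cebpd summed to 62.9 ± 2.46, 44.4 ± 0.263, 120.1 ± 16.2 and 123 ± 9.26 CPM in the same order, lower in every URE-LSK than in any WT-LSK library and overlapping in GMP. Those of Cebpg summed to 62.3 ± 2.94, 63.6 ± 1.62, 89.1 ± 12.7 and 107 ± 1.87 CPM. The region over the start site made up 77.4% ± 1.66 of the Cebpg total in WT-LSK and 59.1% ± 3.98 in WT-GMP, and 7.70% ± 0.775 and 26.2% ± 5.02 of the Cebpe total.

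For each start region the promoter regions with the most similar course were looked up among 15617 others, by Pearson's r of log2(CPM + 0.5) over the 12 libraries, which share their depth and scaling. This is a description without a test. The 3 most alike had r of 0.992 to 0.993 for Cebpb, led by Trappc10, and 0.991 to 0.994 for Cebpd, led by Trem3. For Cebpe they had r of 0.992 to 0.996, led by C130050O18Rik at 0.996, with the myeloperoxidase gene Mpo and Def8 both at 0.992. For Cebpg, the flattest of the 4, they had r of 0.970 to 0.972, led by Map2k7.

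Among relatives, partners and regulators of the C/EBP proteins (13 genes, of which 12 had a promoter region and Atf4 had none), 0 were called higher and 1 lower in URE-LSK, and 0 in either direction in URE-GMP by edgeR's quasi-likelihood test. DESeq2 also called 0 in these 3 cases, and at an unadjusted p under 0.05 there were 5 higher in LSK and 7 higher and 1 lower in GMP. Of all promoter regions 11.5% were called in LSK (3.83% higher and 7.68% lower) and 13.0% in GMP (4.79% higher and 8.25% lower). The 1 call was Batf2, a zipper protein of dendritic cells and macrophages, at a log2 fold change of -1.29 (edgeR adjusted p = 0.0025) in LSK. In GMP it was a log2 fold change of -0.72 (edgeR adjusted p = 0.0603) and did not pass. Cebpa, the founding member of the family, had a log2 fold change of -0.00061 (edgeR adjusted p = 0.995) in LSK and a log2 fold change of 0.24 (edgeR adjusted p = 0.0184) in GMP. Trib1, whose product brings about the breakdown of C/EBP alpha, had a log2 fold change of 0.37 (edgeR adjusted p = 0.029) in LSK and a log2 fold change of 0.47 (edgeR adjusted p = 0.00689) in GMP, higher but under the fold threshold. Trib2 had a log2 fold change of 0.81 (edgeR adjusted p = 0.000179) in LSK. The median over the 12 was 0.23 in LSK and 0.22 in GMP, beside 0.22 and 0.16 over all promoter regions.

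Among granulocyte and acute phase genes known as C/EBP targets (18 genes, of which 15 had a promoter region and Lcn2, Chil3 and Cybb had none), 4 were higher and 3 lower in URE-LSK, and 5 were higher and 0 lower in URE-GMP, where 0 were also lower with DESeq2 and at an unadjusted p under 0.05. Over all promoter regions 3.83% were called higher and 7.68% lower in LSK, and 4.79% higher and 8.25% lower in GMP. Of the secondary granule genes, Camp and Ngp were higher in both cell types and Ltf was not. Camp had a log2 fold change of 1.53 (edgeR adjusted p = 0.000823) in LSK and a log2 fold change of 1.78 (edgeR adjusted p = 9.9e-06) in GMP, and Ngp had a log2 fold change of 1.79 (edgeR adjusted p = 0.00849) and a log2 fold change of 2.32 (edgeR adjusted p = 9.25e-06). Ltf, the lactoferrin gene, was on the lower side, with a log2 fold change of -0.98 (edgeR adjusted p = 0.000274) in LSK, under the fold threshold, and a log2 fold change of -0.13 (edgeR adjusted p = 0.585) in GMP. Cd177 (log2 fold change 1.25 and 2.01) and the primary granule protease gene Ctsg (1.93 and 1.12) were also called in both. In LSK, Camp had means of 0.504 CPM (WT) and 1.42 CPM (URE). Ngp, at 0.124 and 0.467 CPM, and Cd177, at 0.140 and 0.346 CPM, lay near the floor of 3 counts there. Ctsg was spread in URE-LSK, at 12.7 ± 5.97 CPM against 3.32 ± 0.468 CPM in WT-LSK. Leaving out 1 library gave 3 to 5 higher targets in LSK. S100a9 was called higher only in GMP (2.71). The 3 lower in LSK were the neutrophil collagenase gene Mmp8 (-2.29), S100a8 (-1.47) and the lysozyme gene Lyz2 (-1.49). In GMP they had log2 fold changes of -0.32, 0.55 and -0.15 and were not called. The median over the 15 was -0.03 in LSK and 0.44 in GMP, beside the promoter medians given above. From LSK to GMP 10 of the 15 were higher and 2 lower in WT (13.5% of all promoter regions were called, 6.2% higher and 7.29% lower), and 11 were higher and 1 lower in URE (19.7% were called, 8.54% higher and 11.1% lower).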

How the data were processed

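ATAC-seq (OmniATAC) libraries of sorted LSK and GMP were taken in the 4 groups given by the labels, with replicate numbers from the sample titles. The authors deposited raw counts per region and library. Per the study's methods and the submitters' processing notes, Bowtie2 mapped the reads (GRCm38), PCR copies and reads off the primary chromosomes were dropped, and Genrich called peaks in each group. The notes also name cutadapt, bedtools and featureCounts. Apart from that of Genrich, versions are not given in the sources used here, nor whether fragments or read ends were counted. Region starts were taken as counted from 0 and are written counted from 1.

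Counts of all 121336 regions were fitted in R 4.3.3 with edgeR 4.0.16 (TMM, quasi-likelihood, 1 coefficient per group, all 12 libraries, two-sided, Benjamini-Hochberg over all regions; biological coefficient of variation 0.185). The filter filterByExpr removed 0 regions. The fit was also run on simulated counts with a common spread and changes of 1.5 or 2.5 (log2, either direction) in 200 regions of URE-LSK. It called 86% of the former and 100% of the latter, with 9 false calls among the 121336 regions. With so few changed regions it could not test the choice of scaling. CPM are counts scaled after TMM, and values are means ± SD of 3 libraries or log2 fold changes ± SE. Promoter regions lay within 500 bp of a start site. Motifs were searched on both strands. Alternatives were DESeq2 1.42.0, other scalings (limma 3.58.1 loess, span 0.3), filters, thresholds, a replicate block, and leaving out each library. The 95% interval comes from the edgeR fit and includes the spread between libraries, and the floor of 3 counts covers counting error only.

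Named regions were the start regions, the 3 with the most counts, and the 3 called with the smallest p in each of 5 comparisons per gene (29 of 40). Others named were chosen after their values were seen. The members, lists and tests were chosen with earlier results of these data known. Marker and gene lists used the promoter region with the most counts. Same-numbered libraries of WT-LSK and WT-GMP deviated together (r = 0.181, 0.191 and 0.207 across regions), which met the pairing criterion of over 0.1 in each pair. The labels do not say that they share a mouse. Within groups log2 CPM correlated at 0.94 to 0.98, and no pair of libraries differed by less than sampling noise. The B cell marker list and 1 region's sequence are not reported here.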

Additional observations from a re-analysis of the deposited data

Results flagged for a closer look

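The genotype effect differed between GMP and LSK, by a direct test of the difference (edgeR's quasi-likelihood interaction contrast, GMP effect minus LSK effect, log2), in 8 of the 40 regions, against 14.0% of all regions. At Cebpd the values were 2.46 at +2.9 kb and 1.52 at +3.6 kb, where the loss in URE was larger in LSK than in GMP. At Cebpe they were 1.03 for the region over the start site (-0.4 kb), -1.74 at -12.1 kb and -1.45 at -16.9 kb, the latter pair lower in URE-GMP and not called in LSK. At Cebpg they were 1.28 at -0.7 kb, lower in URE-LSK and near 0 in GMP, 1.49 at +12.8 kb and 2.15 at +18.3 kb, both higher in URE-GMP by more than in LSK. The calls at Cebpd +2.9 kb, Cebpd +3.6 kb, Cebpg -0.7 kb and Cebpg +18.3 kb held in every alternative fit, and the other 4 were lost in at least 1.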

How the results depend on the processing

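Requiring a mean CPM of 2 or more left 3 members called higher in LSK (8.16% of all regions tested), 5 higher and 2 lower in GMP (10.2% and 18%), 9 higher and 0 lower from LSK to GMP in WT (14.7% and 13.8%), 1 lower in URE (17.9%) and 0 lower for the difference between the genotype effects (4.17%). Weak regions were then no longer tested, some of the 40 members among them, so these member counts are not out of 40. With this filter 5 target promoters were lower in LSK (1031 of the 17297 promoter regions tested were). With no fold threshold there were 10 higher and 11 lower in LSK (27.9% and 28.9% of all regions), 20 higher and 11 lower in GMP (29.6% and 31.2%) and 7 lower in WT (28.6%), with 5 partner promoters higher in LSK and 6 in GMP, and 5 target promoters lower in LSK. Of 19118 promoter regions, 7401 were then higher and 2200 lower in LSK, and 6722 were higher in GMP. Loess offsets gave 10 higher in LSK (21.2%). Omitting the filter gave the same counts, since the filter removed 0 regions. Leaving out 1 library gave 5 to 8 higher and 6 to 9 lower members in LSK, 8 to 12 and 7 to 8 in GMP, 13 to 14 and 2 to 3 in WT, 18 to 19 and 4 in URE, and 4 to 9 and 0 to 2 for the difference between the effects. Of all regions these fits called 11.8% to 14.2% higher and 23.1% to 24.7% lower in LSK. The shares were 15.2% to 16% and 23.2% to 24.8% in GMP, and 18.5% to 21% and 16.8% to 21.4% in WT. In URE they were 25.7% to 28.4% and 21.1% to 22.2%, and for the difference 6.62% to 9.72% and 3.28% to 5.4%.

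With the replicate number as a block the members called were 6 higher and 6 lower in LSK, 9 and 7 in GMP, 14 and 2 in WT, 19 and 4 in URE and 8 and 2 for the difference between the effects. Of all regions 13.7% were then higher and 24.1% lower in LSK, 15.8% and 24.1% in GMP, and 20.9% and 17% in WT. The shares were 27.6% and 21.6% in URE, and 9.73% and 5.77% for the difference. Only the WT libraries met the pairing criterion. In the other comparisons the lowest r of same-numbered libraries was -0.0616 (LSK), 0.0997 (GMP) and 0.0616 (URE). In none of these did every library correlate best with its own number. In GMP, WT-GMP replicate 1 had an r of 0.135 with URE-GMP replicate 2 and 0.0997 with URE-GMP replicate 1.

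GC content offsets moved the median log2 fold change of all regions from 0.14 to 0.28 in LSK and from 0.06 to 0.20 in GMP. Signs turned for 4 differences that had not been called. Cebpd +0.1 kb in GMP was -0.052 with loess offsets. Cebpe +5.3 kb in LSK was -0.047 with library sizes only, -0.018 with loess offsets, -0.073 with the CPM filter and -0.12 to 0.16 without 1 library. Cebpg -0.7 kb in GMP was 0.023 with RLE size factors, 0.024 with DESeq2, 0.41 with GC content offsets, 0.43 with the block and these offsets, and -0.15 to 0.204 without 1 library. Cebpg +0.2 kb in LSK was -0.083 with loess offsets and -0.13 with GC content offsets, also with the block. The cause was not tested.

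Some regions passed the threshold when 1 library was left out. In LSK these were Cebpb -1.1 kb (1.06 without WT-LSK replicate 1, 1.02 and 1.05 without URE-LSK replicates 1 and 2), Cebpb +12.8 kb (-1.05 without WT-LSK replicate 1), Cebpd +2.4 kb (-1.099 and -1.06 without URE-LSK and WT-LSK replicate 1), Cebpe +16.6 kb (-1.14 without URE-LSK replicate 2, -1.12 and -1.01 without WT-LSK replicates 1 and 2) and Cebpg +12.8 kb (1.02 without URE-LSK replicate 2). In GMP they were Cebpd +2.4 kb (-1.17 without URE-GMP replicate 2, -1.06 and -1.12 without WT-GMP replicates 2 and 3) and Cebpe -2.1 and +5.3 kb (1.002 and 1.08 without WT-GMP replicate 1). For the difference between the effects they were Cebpb -2.4 kb (1.002 without WT-GMP replicate 2), Cebpb -1.1 kb (1.46 to 1.802 without URE-GMP replicate 3, URE-LSK replicate 3, WT-GMP replicate 1 or 2, or WT-LSK replicate 3) and Cebpe +5.3 kb (1.001 and 1.07 without URE-LSK replicate 3 and WT-GMP replicate 1). Regions near 3 counts a library limit what the LSK comparisons can show.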
